A study of Mus musculus with 18 samples.

Results

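Interferon-stimulated genes are the genes that cells switch on when interferon, the alarm signal of a virus infection, binds its receptor. The 37 genes described here were listed by name from that programme, without a threshold on a measured value but with earlier results of these data known. For each gene the promoter peak with the highest summed RNA polymerase II value over the 6 RNA polymerase II libraries was taken. A promoter peak has its centre within 5000 nt of a gene's start. Of the 37 genes, 34 had such a peak, out of 13979 genes with a symbol and a promoter peak. *Ifit1*, *Ifit3* and *Parp9* had none annotated to them.

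The data were ChIP-seq libraries of RNA polymerase II (the Polr2a subunit), of the chromatin protein CTCF and of IgG, an antibody without a target, from ventricles of adult mouse hearts. In *Trdn-as* KO mice, on a C57BL/6 background and homozygous, a polyA signal in the first exon ends transcription of *Trdn-as*, a long non-coding RNA of cardiomyocytes antisense to Trdn. *Mettl3* KO mice (Mettl3lox/lox:alphaMHC-MerCreMerpos) lose METTL3, the enzyme that writes m6A on RNA, after tamoxifen is given to adults. The alphaMHC promoter drives the Cre in cardiomyocytes, so fibroblasts, endothelial cells and leukocytes of these hearts keep *Mettl3*. The third group is labelled WT, and whether its hearts carried floxed alleles, the Cre or tamoxifen is not given in the sources used here. Each genotype had 2 RNA polymerase II libraries, 2 CTCF libraries and 1 IgG library. Chromatin came from 2 pooled hearts, and nothing says that the libraries of a genotype came from separate hearts, so p-values measure only the spread between these libraries, which may be technical.

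Interferon signalling runs from the receptors through the kinases JAK1 and TYK2 to a complex that holds STAT2 and IRF9. That complex binds the interferon-stimulated response element (ISRE), and the gamma-activated site (GAS) is read after interferon gamma. The induced proteins sense foreign RNA, block its translation, edit or degrade it, and display its peptides on MHC class I. RNA without m6A can be read as foreign by some of these sensors, which is the reason to ask whether loss of *Mettl3* in cardiomyocytes came with more RNA polymerase II at these genes. CTCF on the same peaks served as the control.

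Many of these promoters carry the letters that this signalling reads. RefSeq gave a promoter window of 300 bases, 250 before to 50 after the start, for 28 of the 37 genes (build GRCm38.p6, while the peaks are on GRCm39, so their coordinates are not compared). The ISRE was searched as GAAANNGAAA on both strands and the GAS as TTCNNNGAA, which reads the same on both strands. An ISRE match was in the window of 13 of the 28 genes, 46.4%, against 3.99% of the 27025 genes with a window. A GAS match was in 8 of the 28, 28.6%, against 9.55% of all genes, and 3 genes had both while 10 had neither. Windows of 5 members that the results turn on are shown, with the matches in capitals and each read 5′ to 3′ on the strand of the gene. *Isg15* has 3 overlapping ISRE matches, *Ifih1* had the lowest p of all members in *Mettl3* KO against WT, *Gbp2* passed one of the tests, *B2m* had the highest RNA polymerase II value, and *Irf1* has a GAS match. The windows lie at chr4:156200769-156201068 on the minus strand, chr2:62646206-62646505 on the minus strand, chr3:142620413-142620712 on the plus strand, chr2:122147437-122147736 on the plus strand and chr11:53769764-53770063 on the plus strand of GRCm38.p6.
Isg15: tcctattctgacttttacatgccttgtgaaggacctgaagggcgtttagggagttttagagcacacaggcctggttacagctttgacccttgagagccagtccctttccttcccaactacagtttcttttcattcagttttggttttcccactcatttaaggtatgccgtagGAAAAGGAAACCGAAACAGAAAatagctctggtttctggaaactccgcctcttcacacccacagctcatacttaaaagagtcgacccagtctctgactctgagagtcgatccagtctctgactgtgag
Ifih1: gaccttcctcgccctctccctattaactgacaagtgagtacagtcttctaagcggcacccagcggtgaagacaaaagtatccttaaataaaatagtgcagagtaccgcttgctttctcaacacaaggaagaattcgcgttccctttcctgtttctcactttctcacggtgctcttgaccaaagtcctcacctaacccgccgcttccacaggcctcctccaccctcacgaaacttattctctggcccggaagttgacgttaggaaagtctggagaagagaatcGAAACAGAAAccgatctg
Gbp2: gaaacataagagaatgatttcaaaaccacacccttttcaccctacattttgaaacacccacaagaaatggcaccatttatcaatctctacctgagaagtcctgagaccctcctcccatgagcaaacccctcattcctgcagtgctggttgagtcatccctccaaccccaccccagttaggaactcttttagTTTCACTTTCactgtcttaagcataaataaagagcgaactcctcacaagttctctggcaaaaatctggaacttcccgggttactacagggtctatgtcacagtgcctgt
B2m: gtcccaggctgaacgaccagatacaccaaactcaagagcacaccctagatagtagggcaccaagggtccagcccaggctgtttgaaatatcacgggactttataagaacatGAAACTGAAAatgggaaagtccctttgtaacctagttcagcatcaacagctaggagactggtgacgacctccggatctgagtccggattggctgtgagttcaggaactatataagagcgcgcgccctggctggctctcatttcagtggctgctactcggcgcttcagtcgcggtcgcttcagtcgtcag
Irf1: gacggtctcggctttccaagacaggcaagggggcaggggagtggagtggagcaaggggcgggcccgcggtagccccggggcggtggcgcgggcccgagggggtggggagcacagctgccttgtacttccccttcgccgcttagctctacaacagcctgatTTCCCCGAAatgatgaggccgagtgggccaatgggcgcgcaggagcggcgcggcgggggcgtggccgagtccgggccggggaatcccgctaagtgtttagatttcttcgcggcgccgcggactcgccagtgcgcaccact
Counted from the gene's start, with bases before it negative, the first base of a match lay at -78, -72 and -66 in *Isg15*, at -59 in *Gbp2*, at -139 in *B2m* and at -90 in *Irf1*, whereas that of *Ifih1* lay at 32. A match describes letters in the window and is not a measured binding site. The 10 tested members with an ISRE match had a median log2 fold change of RNA polymerase II in *Mettl3* KO against WT of 0.18, beside 0.22 in the 15 tested members with a window and no match.

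**Figure D1:**
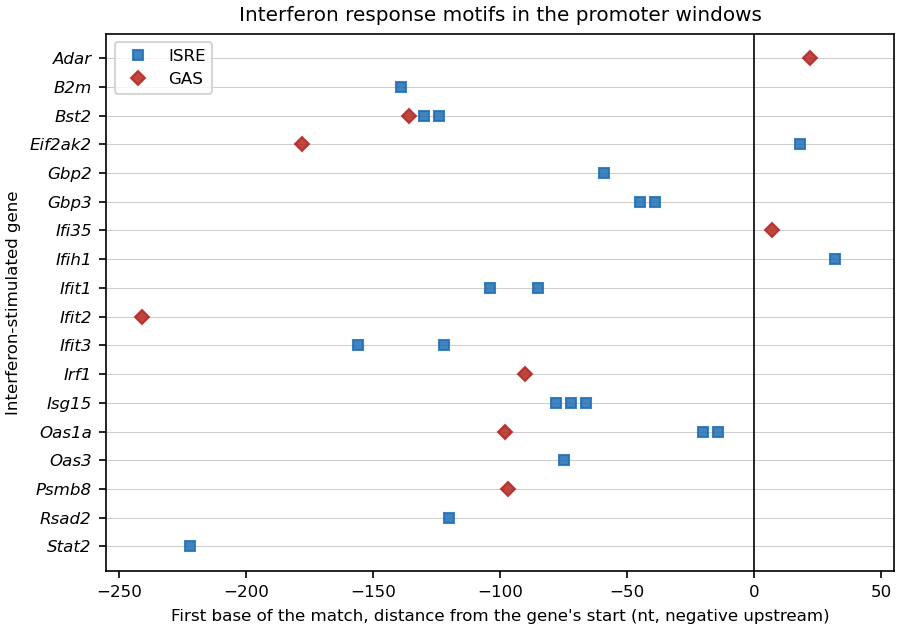
Position of ISRE (blue squares) and GAS (red diamonds) matches in the promoter windows of the 18 members that had one. The x axis is the distance in nt of the first base of a match from the gene's start, which is the vertical line, and the 3 matches of *Isg15* stand side by side between -78 and -66.

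The libraries held 1987598 to 4953509 estimated reads in peaks for RNA polymerase II and 6789496 to 10163792 for CTCF. One library stood apart. *Trdn-as* KO library 2 of RNA polymerase II had 18.6% of its mapped reads in peaks, while the other 5 had 35.5% to 42.6%, so the calls and lowest fold changes of *Trdn-as* KO are set beside values without it. At the *Trdn-as* promoter itself RNA polymerase II was 530 and 595 (WT), 140 and 100 (*Trdn-as* KO) and 503 and 491 (*Mettl3* KO) (log2 fold change of *Trdn-as* KO against WT -2.24, SE 0.18, adjusted p = 2.8e-14, limma). A promoter peak does not report on the exons deleted from *Mettl3*, so the levels there, 177 and 202 (WT) and 240 and 235 (*Mettl3* KO), check nothing. Values throughout are normalized read counts of a peak, and fold changes are on the scale of log2(value + 1).

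RNA polymerase II was present at most of these promoters in WT hearts. Per kb of peak, the WT mean had a median of 137 over the 34 members and of 126 over the top promoter peaks of all 13979 genes. *Usp18* led with 267 per kb, followed by *B2m* with 265, *Stat2* with 258 and *Irf1* with 253, and neighbours in this order differed by less than the spread of their WT libraries. The lowest per kb were *Zbp1* with 24.7 and *Oas3* with 9.22. Scaled to the mapped reads of each library (RPM), the members' peaks summed to 599 and 660 for RNA polymerase II in the WT libraries and to 47 in WT IgG. In the 28 members with at least 10 estimated IgG reads in WT, the RNA polymerase II to IgG ratio ran from 1.96 at *Zbp1* to 31.4 at *Stat2*, with a median of 14.7. The same ratio had a median of 14.6 over 9394 promoter peaks with as many IgG reads and a mean RNA polymerase II value of at least 100. Promoter peaks with such a mean are called strong promoter peaks from here on. Among the 28 members, *Zbp1* was nearest to IgG. In *Trdn-as* KO the members summed to 267 and 542 RPM, beside 45 for IgG, and in *Mettl3* KO to 632 and 701, beside 46.3.

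**Figure D2:**
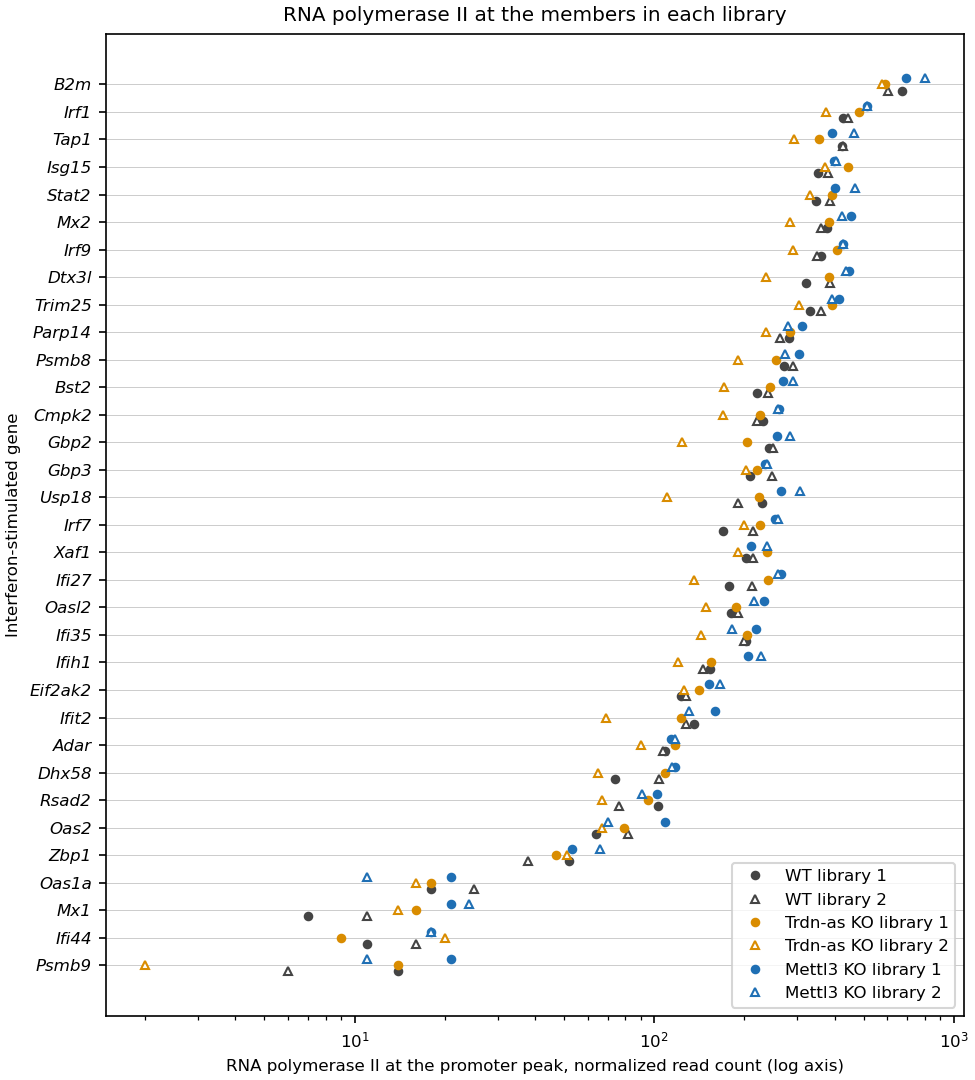
RNA polymerase II at the promoter peak of the 33 tested members, as normalized read count on a log axis, with WT in grey, *Trdn-as* KO in orange and *Mettl3* KO in blue, filled circles for library 1 and open triangles for library 2. Values run from 2 at *Psmb9* to 800 at *B2m*, and the open orange triangles of *Trdn-as* KO library 2 lie to the left of the other libraries at most genes.

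No interferon-stimulated gene passed the test in *Mettl3* KO against WT: 0 of the 33 members tested had an adjusted p below 0.05 by limma, and 5 had an unadjusted p below 0.05. Over all 52655 peaks tested 1.19% were called, and over the 9993 strong promoter peaks 1.55%. Most members lay slightly above WT, with 31 of 33 log2 fold changes above 0 and a median of 0.25, but when the libraries were scaled to the median of the strong promoter peaks 15 of 33 were above 0 and the median was -0.01. Strong promoter peaks in general were shifted by nearly the same amount, with a median log2 fold change of 0.27, quartiles of 0.14 and 0.38 and 88.3% above 0. Both *Mettl3* KO libraries were above both WT libraries at 22 of the 33 members, 66.7%, while this held for 31.2% of all peaks tested and for 76.1% of the strong promoter peaks. The members' median thus lay between the quartiles of the strong promoter peaks. Over all peaks 375 were called higher and 254 lower, and after that scaling 408 higher and 2245 lower. The calls depended on whether *Trdn-as* KO entered the fit: with WT and *Mettl3* KO alone 3 members were called (*Ifih1*, *Usp18* and *Ifi27*), beside 4891 of 47697 peaks. Among the 25 members with a mean value of at least 100, the upper ends of the 95% intervals of the log2 fold change ran from 0.34 to 0.96, so a log2 change of 1 lay outside the interval of all 25. The smallest change that was called at a strong promoter peak was 0.32 on the log2 scale. In the same comparison 4 of 6 fibroblast markers were called higher, and all 6 had a log2 fold change above 0. The part of these markers in the members' values was not tested. In tissue, a different number of cells of a type and a different amount of polymerase per cell cannot be told apart.

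**Figure D3:**
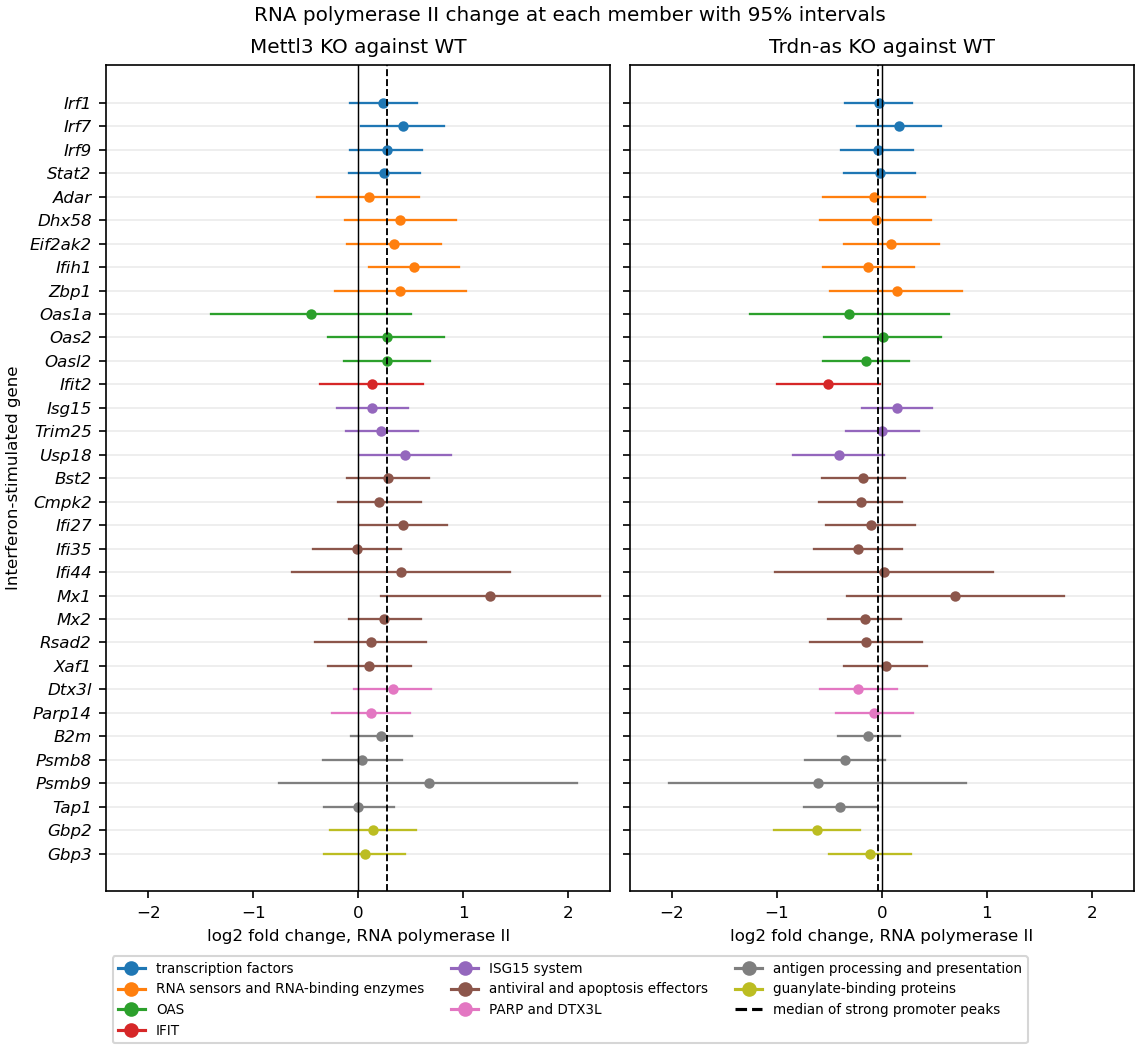
Log2 fold change of RNA polymerase II against WT (x axis) for each of the 33 tested members (y axis, grouped by role and colour), in *Mettl3* KO on the left and *Trdn-as* KO on the right, with 95% intervals as bars. The dashed lines mark the median of the strong promoter peaks, 0.27 and -0.04, and most members' intervals in the left panel include the dashed line. The points of 31 members lie above 0 there, which became 15 after scaling to the strong promoter peaks.

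Of the transcription factors that carry the interferon signal, *Stat2* and *Irf1* were among the most occupied members, while *Irf9*, with 157 per kb, was nearer to the members' median of 137 and *Irf7*, with 90.2, lay below it. STAT2 and IRF9 are subunits of the complex that binds the ISRE, IRF1 is induced chiefly by interferon gamma, and IRF7 amplifies the type I interferon response. At *Stat2* RNA polymerase II was 347 and 385 (WT), 393 and 332 (*Trdn-as* KO) and 402 and 469 (*Mettl3* KO), with a log2 fold change of *Mettl3* KO against WT of 0.25 (SE 0.17, adjusted p = 0.49). *Irf1* had 426 and 444 (WT), 484 and 375 (*Trdn-as* KO) and 514 in both *Mettl3* KO libraries. *Irf9* had 361 and 349 (WT), 408 and 291 (*Trdn-as* KO) and 428 and 426 (*Mettl3* KO). In these 3 genes the *Mettl3* KO libraries lay above WT without overlap, as at 31.2% of all peaks tested and 76.1% of the strong promoter peaks. The log2 fold changes of the 3 genes were 0.24 to 0.27, while the strong promoter peaks had a median of 0.27. *Irf7* had 169 and 213 (WT), 225 and 200 (*Trdn-as* KO) and 253 and 258 (*Mettl3* KO), the last also above WT without overlap. Its log2 fold change of *Mettl3* KO against WT was 0.43 (SE 0.20, adjusted p = 0.28). All 4 factors were above 0, but after scaling to the strong promoter peaks 2 were above and 2 below.

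Among the RNA sensors and RNA-binding enzymes, *Ifih1* had the lowest p of all 33 members. *Ifih1* encodes MDA5, the sensor of long double-stranded RNA, and its RNA polymerase II was 153 and 145 (WT), 155 and 120 (*Trdn-as* KO) and 205 and 227 (*Mettl3* KO) (chr2:62475650-62477332, GRCm39). The log2 fold change of *Mettl3* KO against WT was 0.53 (SE 0.22, adjusted p = 0.22, limma), and 93.6% of the strong promoter peaks had a smaller one. Its adjusted p was 0.025 with only WT and *Mettl3* KO in the fit, where 10.3% of all peaks tested were called. After scaling to the strong promoter peaks the highest log2 fold change of this group was 0.27, and its lowest adjusted p was 0.32. *Dhx58*, which encodes the MDA5 partner LGP2, had 74 and 104 (WT), 109 and 65 (*Trdn-as* KO) and 117 and 115 (*Mettl3* KO). *Eif2ak2* encodes PKR, the kinase that stops translation on double-stranded RNA, and it led this group per kb with 135. Its values were 123 and 128 (WT), 141 and 126 (*Trdn-as* KO) and 152 and 166 (*Mettl3* KO) (log2 fold change 0.34, SE 0.22, adjusted p = 0.47). *Zbp1*, a sensor of Z-form nucleic acid that can start cell death, had 52 and 38 (WT), 47 and 51 (*Trdn-as* KO) and 53 and 66 (*Mettl3* KO). In all 4 genes both *Mettl3* KO libraries were above both WT libraries, as at 76.1% of the strong promoter peaks, none passed the test, and after scaling to the strong promoter peaks 4 of the 5 genes of this group were above 0.

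*Adar* had RNA polymerase II at a pair of places. It encodes ADAR1, which edits adenosine to inosine in double-stranded RNA and keeps self RNA from setting off MDA5, and it is known to use an interferon-inducible promoter and a constitutive one. The annotated promoter peak had 109 and 107 (WT), 117 and 90 (*Trdn-as* KO) and 114 and 117 (*Mettl3* KO) (log2 fold change 0.10, SE 0.24, adjusted p = 0.89). An unannotated peak 15953 nt inside the gene (chr3:89637469-89639096, GRCm39) had more, with 218 and 210 (WT), 276 and 167 (*Trdn-as* KO) and 263 and 234 (*Mettl3* KO). RefSeq lists a further start of *Adar* 15696 nt from the first one on GRCm38.p6. The log2 ratio of the inner to the annotated peak was 0.99 and 0.97 (WT) and 1.20 and 0.99 (*Mettl3* KO), a difference of 0.12 (exact permutation test, two-sided, p = 0.333, the smallest that 2 against 2 libraries allow). Neither peak passed the test, with an adjusted p of 0.64 for the inner one (log2 fold change 0.21, SE 0.20).

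The OAS genes, whose enzymes make oligoadenylates that activate RNase L, ranged from well occupied to nearly empty. *Oasl2* led them with 135 per kb and had 180 and 191 (WT), 188 and 149 (*Trdn-as* KO) and 232 and 216 (*Mettl3* KO) (log2 fold change 0.27, SE 0.21, adjusted p = 0.54). *Oas2* had 64 and 82 (WT), 79 and 67 (*Trdn-as* KO) and 109 and 70 (*Mettl3* KO), with overlapping groups. *Oas1a* had the lowest log2 fold change of all members, -0.45 (SE 0.48, adjusted p = 0.68), from 18 and 25 (WT), 18 and 16 (*Trdn-as* KO) and 21 and 11 (*Mettl3* KO). *Oas3* stayed under the filter, with values of 0 to 4 in the 6 libraries, and its peak lay 4196 nt from the start. A ratio between genotypes means little at such values.

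Of the IFIT genes, which bind RNA with foreign 5′ ends and block its translation, *Ifit2* was the one with a promoter peak. It had 136 and 128 (WT), 123 and 69 (*Trdn-as* KO) and 159 and 131 (*Mettl3* KO) (log2 fold change 0.13, SE 0.25, adjusted p = 0.84). After scaling to the strong promoter peaks this fold change was -0.13. Both *Trdn-as* KO libraries were below both WT libraries, as at 19.1% of all peaks tested. The log2 fold change of *Trdn-as* KO against WT was -0.51 (SE 0.25, adjusted p = 0.63), and -0.10 without *Trdn-as* KO library 2. For *Ifit1*, which RefSeq places next to *Ifit1bl2*, the peak annotated to *Ifit1bl2* was looked up after the values were seen. It had 113 and 114 (WT), 143 and 86 (*Trdn-as* KO) and 143 and 163 (*Mettl3* KO) (log2 fold change 0.42, SE 0.24, adjusted p = 0.39).

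ISG15 is a ubiquitin-like protein, TRIM25 is an E3 ligase of this system that activates the sensor RIG-I, and USP18 removes ISG15 from proteins and shuts off the type I interferon receptor. *Usp18* (chr6:121222355-121223142, GRCm39) had 229 and 191 (WT), 223 and 110 (*Trdn-as* KO) and 265 and 307 (*Mettl3* KO). Against WT its log2 fold change in *Mettl3* KO was 0.45 (SE 0.22, adjusted p = 0.31). With only the compared genotypes the adjusted p was 0.048, in a fit that called 10.3% of all peaks tested. For *Isg15* the peak of the rule lay 2572 nt upstream of the start (chr4:156286965-156288685, GRCm39), with 353 and 380 (WT), 442 and 371 (*Trdn-as* KO) and 398 and 405 (*Mettl3* KO) (log2 fold change 0.13, SE 0.17, adjusted p = 0.74). The smaller peak at the start itself, centred 4 nt from it (chr4:156284922-156285575), had 169 and 140 (WT), 150 and 116 (*Trdn-as* KO) and 182 and 181 (*Mettl3* KO). There the log2 fold change was 0.24 (SE 0.22, adjusted p = 0.63), so neither peak of *Isg15* passed the test. *Trim25* had 331 and 360 (WT), 391 and 305 (*Trdn-as* KO) and 414 and 392 (*Mettl3* KO) (log2 fold change 0.22, SE 0.17, adjusted p = 0.55). After scaling to the strong promoter peaks the log2 fold changes of these 3 genes ran from -0.13 to 0.18. Their median was then -0.04, with 1 above 0.

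The 9 effectors of antiviral defence and apoptosis had a median log2 fold change of 0.25 in *Mettl3* KO against WT, with 8 above 0, and of -0.01 with 4 above 0 after scaling to the strong promoter peaks. *Bst2*, which encodes tetherin, an anchor that holds budding virions on the cell, led them with 224 per kb. It had 221 and 240 (WT), 243 and 171 (*Trdn-as* KO) and 270 and 290 (*Mettl3* KO) (log2 fold change 0.28, SE 0.20, adjusted p = 0.50). *Ifi27*, a mitochondrial protein gene, had 177 and 212 (WT), 239 and 136 (*Trdn-as* KO) and 264 and 259 (*Mettl3* KO) (log2 fold change 0.43, SE 0.21, adjusted p = 0.31). *Ifi27* was called with only WT and *Mettl3* KO in the fit, beside 10.3% of all peaks tested. The MX proteins are GTPases that trap viral nucleocapsids. *Mx2* had 376 and 361 (WT), 383 and 283 (*Trdn-as* KO) and 455 and 423 (*Mettl3* KO), while *Mx1* was near the filter with 7 and 11 (WT), 16 and 14 (*Trdn-as* KO) and 21 and 24 (*Mettl3* KO). The log2 fold change of *Mx1*, 1.26 (SE 0.52, adjusted p = 0.22), was the largest of the members and rested on 5.14 to 17.4 estimated reads per library.

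The other effectors did not pass the test. *Cmpk2*, a mitochondrial nucleotide kinase gene beside *Rsad2*, had 231 and 220 (WT), 226 and 169 (*Trdn-as* KO) and 260 and 259 (*Mettl3* KO). *Rsad2*, which encodes viperin, had 103 and 76, 95 and 67, and 102 and 91 in the same order, with overlapping groups. *Xaf1*, a gene of apoptosis, had 203 and 213 (WT), 238 and 191 (*Trdn-as* KO) and 211 and 237 (*Mettl3* KO). *Ifi35* was next to 0 change, with 203 and 199 (WT), 204 and 143 (*Trdn-as* KO) and 219 and 182 (*Mettl3* KO) (log2 fold change -0.01, SE 0.21, adjusted p = 0.99). *Ifi44* was at 9 to 20 in all 6 libraries.

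PARP9 and DTX3L form a complex that modifies histones and viral proteins, and PARP14 is a mono-ADP-ribosyltransferase. *Dtx3l*, which is known to share its promoter region with *Parp9*, had 321 and 387 (WT), 383 and 236 (*Trdn-as* KO) and 448 and 437 (*Mettl3* KO) (log2 fold change 0.33, SE 0.18, adjusted p = 0.38). Per kb *Parp14* had 166 and *Dtx3l* 151, a difference within the spread of the WT libraries of *Dtx3l*. *Parp14* had 281 and 263 (WT), 285 and 236 (*Trdn-as* KO) and 311 and 280 (*Mettl3* KO). After scaling to the strong promoter peaks 1 of these 2 genes was above 0 in *Mettl3* KO against WT.

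The 4 genes of antigen presentation had a median log2 fold change of 0.13 in *Mettl3* KO against WT with all 4 above 0, and of -0.13 with 1 above 0 after scaling to the strong promoter peaks. *B2m*, the light chain of MHC class I, had the highest values of all members, with 674 and 603 (WT), 589 and 578 (*Trdn-as* KO) and 690 and 800 (*Mettl3* KO) (log2 fold change 0.22, SE 0.15, adjusted p = 0.47). *Tap1* encodes a subunit of the peptide transporter of the endoplasmic reticulum and had 424 and 427 (WT), 354 and 293 (*Trdn-as* KO) and 393 and 463 (*Mettl3* KO). Its log2 fold change in *Mettl3* KO was 0.00 (SE 0.17, adjusted p = 0.99), an RNA polymerase II level of 100% of WT with a 95% interval of 79.3% to 127%, and after that scaling the log2 fold change was -0.26 (adjusted p = 0.12). *Psmb8*, an immunoproteasome subunit gene, had 271 and 290 (WT), 254 and 191 (*Trdn-as* KO) and 304 and 274 (*Mettl3* KO), or 103% of WT (79.1% to 134%). *Psmb9* is read from the same start region as *Tap1*, 226 nt apart on opposite strands in RefSeq, so the peak annotated to *Tap1* may hold polymerase of both. The peak annotated to *Psmb9* lay 2462 nt from its start and was weak, with 14 and 6 (WT), 14 and 2 (*Trdn-as* KO) and 21 and 11 (*Mettl3* KO).

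The guanylate-binding proteins, GTPases that attack the membranes of intracellular pathogens, had a median log2 fold change of 0.10 in *Mettl3* KO against WT and of -0.16 after scaling to the strong promoter peaks. *Gbp2* (chr3:142325457-142327466, GRCm39) had 242 and 249 (WT), 204 and 124 (*Trdn-as* KO) and 257 and 285 (*Mettl3* KO), with a log2 fold change of *Mettl3* KO against WT of 0.14 (SE 0.21, adjusted p = 0.78). *Gbp3* had 208 and 248 (WT), 220 and 202 (*Trdn-as* KO) and 235 and 238 (*Mettl3* KO) (log2 fold change 0.06, SE 0.20, adjusted p = 0.92).

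**Figure D4:**
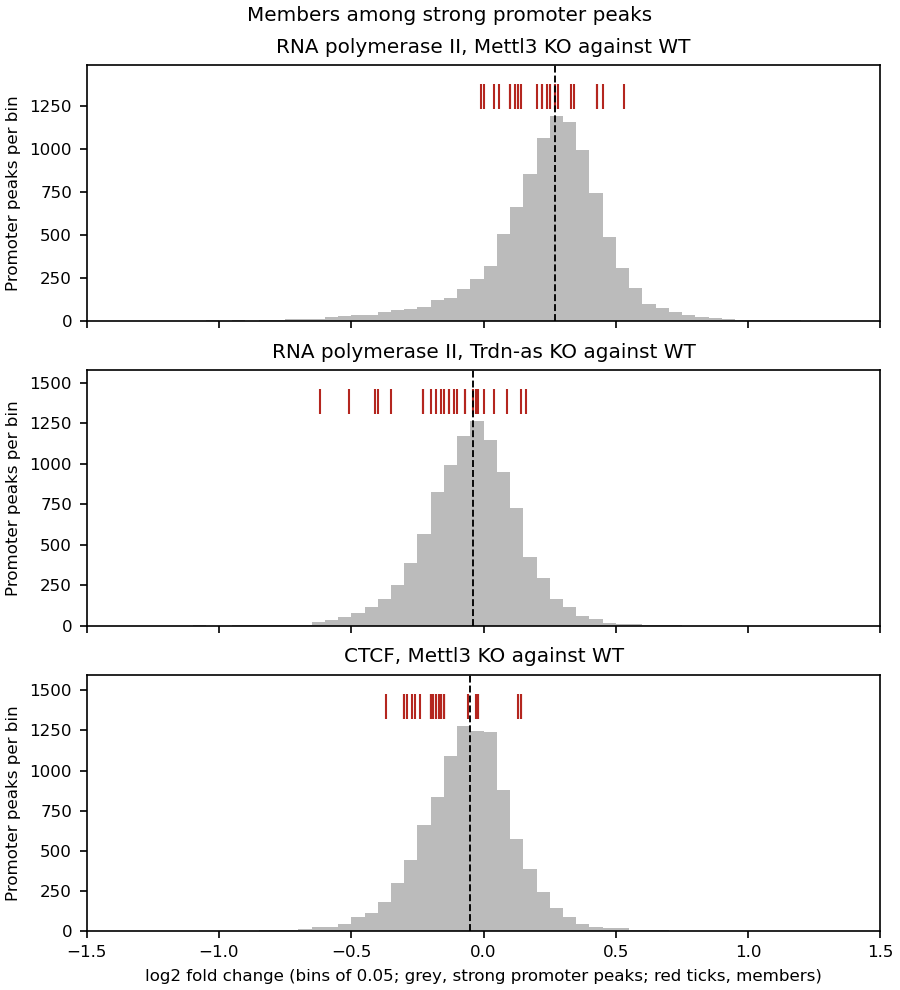
Distribution of log2 fold changes over strong promoter peaks (grey bars, peaks per bin of 0.05, values beyond 1.5 gathered in the end bins) with the 25 members of a mean RNA polymerase II value of at least 100 as red ticks and the median of the strong promoter peaks as a dashed line. In the upper panel, RNA polymerase II in *Mettl3* KO, the members' median of 0.22 lies beside the 0.27 of the strong promoter peaks. In the middle panel, *Trdn-as* KO, it is -0.13 beside -0.04, and in the lower panel, CTCF in *Mettl3* KO, it is -0.18 beside -0.05.

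The comparison of *Trdn-as* KO with WT shares the WT libraries with the one above. Here too 0 of 33 members passed the test, with 3 at an unadjusted p below 0.05, while 0.304% of all peaks tested were called. The median log2 fold change was -0.11, with 9 members above 0 (-0.07 with 11 above 0 after scaling to the strong promoter peaks), and it was 0.09 without *Trdn-as* KO library 2 and -0.31 without library 1. With library sizes from uniquely mapped reads it was -0.71, beside -0.67 for all peaks tested. Both *Trdn-as* KO libraries lay below both WT libraries at 5 members (*Ifit2*, *Psmb8*, *Tap1*, *B2m* and *Gbp2*), 15.2%, beside 19.1% of all peaks tested. *Gbp2* had the lowest log2 fold change, -0.62 (SE 0.21, adjusted p = 0.31), and *Tap1* had -0.40 (SE 0.17, adjusted p = 0.54). These were -0.27 and -0.26 without *Trdn-as* KO library 2. The largest was that of *Mx1*, 0.70 (SE 0.52, adjusted p = 0.82), followed by *Irf7* with 0.16 and *Isg15* with 0.14. The *Isg15* value is that of the peak upstream of the start. At the peak on its start *Isg15* had 169 and 140 (WT) and 150 and 116 (*Trdn-as* KO), with overlapping groups. *Gbp2* alone was called after scaling to the strong promoter peaks (log2 fold change -0.59, adjusted p = 0.020), a fit that holds library 2 and called 0.853% of all peaks. That library had 124 at *Gbp2*, beside 204 in library 1. Without *Trdn-as* KO library 1, that is, with the library that stood apart alone, 6 members were called, *Gbp2*, *Usp18* and *Ifit2* among them, beside 4.3% of all peaks in that fit.

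Members were called in the comparison of the knockouts with each other. *Usp18* was higher in *Mettl3* KO than in *Trdn-as* KO by 0.86 on the log2 scale (SE 0.22, adjusted p = 0.027, limma) and *Gbp2* by 0.76 (SE 0.21, adjusted p = 0.039), 2 of the 33 members, beside 1.5% of all peaks and 2.13% of the strong promoter peaks. The members' median was 0.35 and that of the strong promoter peaks 0.30. After scaling to the strong promoter peaks the log2 fold changes were 0.56 for *Usp18* (adjusted p = 0.035) and 0.47 for *Gbp2* (adjusted p = 0.043). Without *Trdn-as* KO library 2 the log2 fold changes were 0.35 for *Usp18* (adjusted p = 0.35) and 0.41 for *Gbp2* (adjusted p = 0.22), and 0 members were called. Without *Trdn-as* KO library 1, 18 members were called, beside 19.3% of all peaks in that fit. Leaving out any one of the WT or *Mettl3* KO libraries also left 0 members called, with log2 fold changes from 0.69 to 0.97. So did library sizes from uniquely mapped reads, where the members' median was 0.81, no filter, no variance trend and a fit of only the compared genotypes. In the same comparison 4 of 6 fibroblast markers were called higher, with a median log2 fold change of 0.83, as were 1 of 4 markers of smooth muscle and pericytes and 1 of 8 of cardiomyocytes, and their part in the members' values was not tested.

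CTCF, the control, did not pass the test at any member. In *Mettl3* KO against WT 0 of 29 members tested were called by limma (5 at an unadjusted p below 0.05, 0.185% of all 60649 peaks called). Their median log2 fold change was -0.17, beside -0.05 at the strong promoter peaks. The scaling of CTCF used another set, the 3934 promoter peaks with a mean CTCF value of at least 100. It gave the members a median of -0.15 with 7 above 0. Both *Mettl3* KO libraries were below both WT libraries at 16 of the 29, 55.2%, beside 27.7% of all peaks tested and 30.9% of the strong promoter peaks. The lowest was *Oasl2*, with CTCF values of 42 and 44 (WT), 41 and 37 (*Trdn-as* KO) and 34 and 32 (*Mettl3* KO) (log2 fold change -0.37, SE 0.14, adjusted p = 0.22). *Isg15* had 52 in both WT libraries, 61 and 52 (*Trdn-as* KO) and 43 and 41 (*Mettl3* KO) (log2 fold change -0.30, SE 0.13, adjusted p = 0.28) at the peak upstream of the start, while at the peak on the start the CTCF log2 fold change was 0.02 (SE 0.26, adjusted p = 0.99). The other 2 CTCF comparisons called 0 of 29 members as well, beside 0.587% of all peaks for *Trdn-as* KO against WT and 1.37% for *Mettl3* KO against *Trdn-as* KO, with 5 and 4 at an unadjusted p below 0.05. The CTCF to IgG ratio in WT had a median of 5.47 over 28 members, close to the 5.43 of strong promoter peaks. It exceeded the RNA polymerase II to IgG ratio at *Zbp1* (9.03 against 1.96) and *Ifit2* (15 against 7.6). The same held by less at *Adar* and *Gbp3*, but not at the rest of the 28. *Gbp3* with 200 and 181 and *Ifit2* with 198 and 174 had the highest WT values.

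The difference between the changes of RNA polymerase II and of CTCF was tested too, and 0 of 33 members passed in *Mettl3* KO against WT (limma, 7 at an unadjusted p below 0.05). The difference was above 0 in 32 of 33 members, with a median of 0.38, beside a median of 0.32 and 90.1% above 0 at the strong promoter peaks. It was not refitted after scaling, which used another set of peaks for each antibody. The members' medians were then -0.01 for RNA polymerase II and -0.15 for CTCF. Of all 52655 peaks 0.0038% were called. *Ifih1* had the largest difference among members with a mean value of at least 100, 0.68 (SE 0.21, adjusted p = 0.36).

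Other genes of the interferon pathway were looked up as well. Of 93 further genes, 78 had a promoter peak and 75 were tested, and 1 was called in *Mettl3* KO against WT, where 1.19% of all peaks tested were called. This was *Irf2bp2*, which encodes a partner of IRF2, with 1039 and 1069 (WT), 1138 and 965 (*Trdn-as* KO) and 1420 and 1503 (*Mettl3* KO) (log2 fold change 0.47, SE 0.13, adjusted p = 0.042). The call was lost with the replicate block and without any one of the WT or *Mettl3* KO libraries, and after scaling to the strong promoter peaks the log2 fold change was 0.21. The 11 receptors and kinases had a median of 0.23 with 0 called, the 15 tested genes of sensing and induction 0.21 with 1 called, the 5 tested negative regulators 0.39 with 0 called, the 8 genes of the MHC class I pathway 0.20 with 0 called and the 36 other induced genes 0.27 with 0 called. *Irf2bp2* is one of the genes of sensing and induction. In *Trdn-as* KO against WT, with 0.304% of all peaks called, 1 of the 75 was called, *Mndal*, a gene of the interferon-inducible Ifi200 family, with 25 and 19 (WT), 76 and 59 (*Trdn-as* KO) and 28 and 18 (*Mettl3* KO) (log2 fold change 1.58, SE 0.37, adjusted p = 0.030). It was 1.76 without *Trdn-as* KO library 2 (adjusted p = 0.25). CTCF at the *Mndal* peak was 6 and 7 (WT), 23 and 14 (*Trdn-as* KO) and 5 and 8 (*Mettl3* KO), so the control was higher in *Trdn-as* KO too (log2 fold change against WT 1.34, SE 0.31, adjusted p = 0.062), and it was called in *Mettl3* KO against *Trdn-as* KO (-1.37, SE 0.31, adjusted p = 0.034). For RNA polymerase II that comparison called the same 2 of the 75, *Irf2bp2* higher (0.48, adjusted p = 0.035, and 0.18 after scaling) and *Mndal* lower in *Mettl3* KO (-1.53, adjusted p = 0.018).

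Markers of cardiac cell types moved in part. Cardiomyocyte markers were abundant, with summed RNA polymerase II values of 26413 and 28331 (WT), 26474 and 20273 (*Trdn-as* KO) and 27064 and 27508 (*Mettl3* KO) over 8 genes. Of these 0 were called in *Mettl3* KO against WT, with a median log2 fold change of 0.02, beside 0.27 at the strong promoter peaks. *Myh6*, a myosin heavy chain gene, was called lower in *Trdn-as* KO than in WT (log2 fold change -0.35, SE 0.08, adjusted p = 0.029) and than in *Mettl3* KO. The first of these was -0.16 without *Trdn-as* KO library 2 (adjusted p = 0.18). CTCF at *Myh6* was called higher in *Mettl3* KO, with 299 and 289 (WT) and 455 and 480 (*Mettl3* KO) (log2 fold change 0.67, SE 0.06, adjusted p = 6.9e-05), a call that was lost without any one CTCF library, without the filter, without the variance trend and with only the compared genotypes. The Cre transgene of *Mettl3* KO carries the alphaMHC (*Myh6*) promoter, so reads from the transgene and from the gene cannot be told apart there. Fibroblast markers summed to 671 and 716 (WT), 1017 and 691 (*Trdn-as* KO) and 1481 and 1485 (*Mettl3* KO), with 4 of 6 called higher in *Mettl3* KO against WT (*Col1a1*, *Col1a2*, *Col3a1* and *Pdgfra*) and a median log2 fold change of 1.11. *Col3a1*, a fibrillar collagen gene, rose from 78 and 96 to 230 and 246 (log2 fold change 1.45, SE 0.23, adjusted p = 0.00011). Of 4 markers of smooth muscle and pericytes, with a median of 0.29, the pericyte marker *Pdgfrb* was called (0.78, SE 0.18, adjusted p = 0.016). These fibroblast and pericyte calls became 0 without any one of the WT or *Mettl3* KO libraries, with library sizes from uniquely mapped reads, without the filter and without the variance trend, while the lowest fibroblast median over the alternatives was 0.85. Macrophage and other leukocyte markers, cells that respond strongly to interferon, summed to 309 and 334 (WT), 286 and 227 (*Trdn-as* KO) and 338 and 285 (*Mettl3* KO) over 8 of 13 genes. Of these 0 were called, and the median log2 fold change of *Mettl3* KO against WT was -0.03. The other 5, *Csf1r*, *Itgam*, *Cd3e* and *Cd79a* among them, had no annotated promoter peak, and the 8 that had one ranged from 7 to 126. Endothelial markers summed to 874 and 977 (WT) and 961 and 953 (*Mettl3* KO), with 0 of 5 tested called and a median log2 fold change of -0.09. The part of these cell types in the members' values was not tested.

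**Figure D5:**
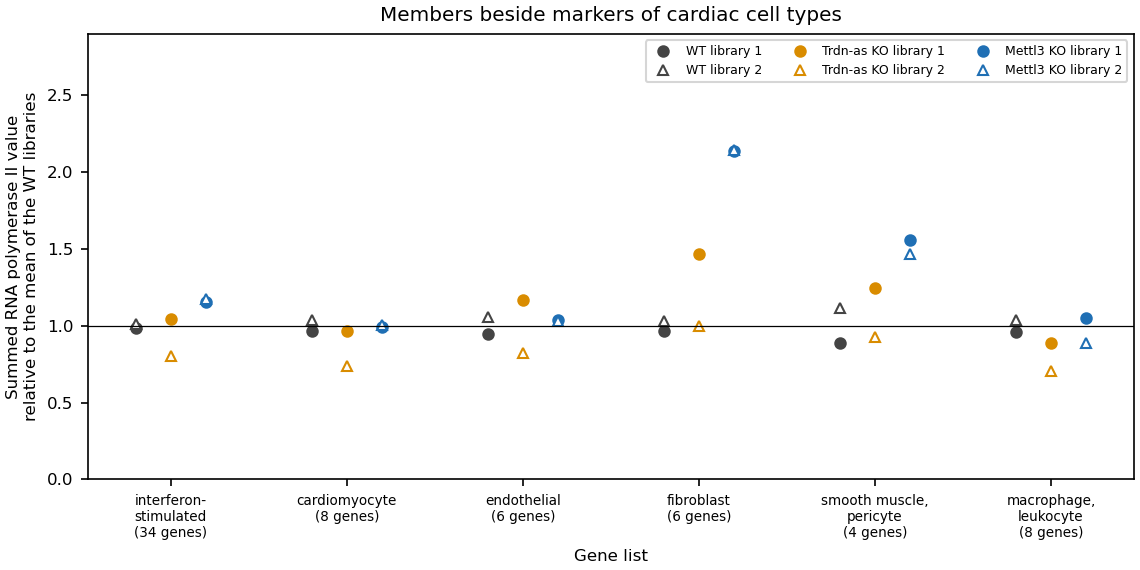
Summed RNA polymerase II value of each gene list in each library, divided by the mean of both WT libraries (y axis), for the members and for marker lists of 5 cell types (x axis), coloured by genotype, with circles for library 1 and triangles for library 2. The members in *Mettl3* KO, which summed to 8317 and 8461 against 7096 and 7291 in WT, stand above WT, although their median fold change was -0.01 after scaling to the strong promoter peaks. The fibroblast markers, with 1481 and 1485 against 671 and 716, stand farther above it.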

How the data were processed

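Chromatin from mouse ventricles (WT, *Trdn-as* KO or *Mettl3* KO) was precipitated with antibodies to RNA polymerase II and CTCF (2 libraries each per genotype) or IgG (1), and input libraries were not analysed here. Per the submitters' notes and methods, reads were trimmed with Trimmomatic 0.39, aligned with STAR 2.7.11b to GRCm39 and freed of duplicates with Picard 3.1.1, peaks were called with MACS and merged over libraries, and reads per peak were counted with featureCounts. The deposited values are signal, namely read counts per union peak that the authors normalized with DESeq2 1.36.0 and that are rounded to whole numbers. Because they are not raw counts, the count test foreseen for raw counts was not used. The authors annotated promoter peaks only. Columns with the authors' own comparisons were not used.

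Values were tested as log2(value + 1) with limma 3.58.1 in R 4.3.3 (variance trend, the 6 libraries of an antibody in 1 fit), over peaks with at least 10 in at least 2 libraries. The Benjamini-Hochberg adjusted p threshold of 0.05 was applied over all peaks tested. The difference between RNA polymerase II and CTCF changes was fitted over both antibodies. Reads per library were estimated from the value that 1 read is worth, and intervals cover the spread between libraries. The code was tested on simulated data. Every member is accounted for, and members are described by role. Further genes of the pathway are named where the test called them. Alternatives were other library sizes, pseudocounts, filters, fits, scalings and peaks, and leaving out each library. The members and lists were chosen with earlier results of these data known.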

Additional observations from a re-analysis of the deposited data

Results flagged for a closer look

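With all 6 libraries in the fit, RNA polymerase II differed between the knockouts at *Usp18* and *Gbp2*. These were 2 of the 33 members, beside 1.5% of all peaks tested and 2.13% of the strong promoter peaks. In this comparison the strong promoter peaks had a median log2 fold change of 0.30. In that fit neither gene passed the test against WT in either knockout. *Mettl3* KO minus *Trdn-as* KO was 0.86 on the log2 scale at *Usp18*, from 223 and 110 (*Trdn-as* KO) and 265 and 307 (*Mettl3* KO), with an adjusted p of 0.027 by limma. At *Gbp2* it was 0.76, from 204 and 124 (*Trdn-as* KO) and 257 and 285 (*Mettl3* KO), with an adjusted p of 0.039. After scaling to the strong promoter peaks the values were 0.56 and 0.47. Without *Trdn-as* KO library 2, which had 18.6% of its mapped reads in peaks, the values were 0.35 and 0.41 and neither passed the test (adjusted p = 0.35 and 0.22). Neither passed it without any one of the WT or *Mettl3* KO libraries, with library sizes from uniquely mapped reads, without the filter, without the variance trend or with only the compared genotypes. The part of that library's low share of reads in peaks was not tested.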

How the results depend on the processing

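In *Mettl3* KO against WT limma called 3 members with only the compared genotypes and 0 under the other alternatives that kept all libraries. The members' median was -0.01 after scaling to the strong promoter peaks, which moved the median of all promoter peaks tested from 0.17 to -0.09. Both scalings were chosen after seeing the data. Leaving out 1 library gave 0 to 3 members, a median of 0.19 to 0.25, 0 to 4975 peaks and 0 to 21 pathway genes. The peaks called, 629, became 31 with library sizes from uniquely mapped reads, 987 with a pseudocount of 5, 7 without the filter, 1134 with a filter at 30, 2 without the variance trend, 4891 with only the compared genotypes, and 2271 and 2653 (408 higher, 2245 lower) after scaling to the median promoter peak and to the strong promoter peaks. The 1 pathway gene became 0 with uniquely mapped reads, without the filter, without the trend and with the replicate block, 21 with only the compared genotypes and 5 under both scalings.

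In *Trdn-as* KO against WT the members called became 1 under both scalings, and the median -0.71 with uniquely mapped reads. Leaving out 1 library gave 0 to 6 members, a median of -0.31 to 0.09, 17 to 2185 peaks and 0 to 8 pathway genes. The 160 peaks became 12 without the filter, 4 without the trend, 43 with only the compared genotypes, and 395 and 425 under the scalings, and the pathway gene was lost (0) with uniquely mapped reads, without the filter, without the trend and with only the compared genotypes. In *Mettl3* KO against *Trdn-as* KO the 2 members became 0 with uniquely mapped reads (median 0.81), without the filter, without the trend and with only the compared genotypes, 1 with a pseudocount of 0.5 and 4 with a filter at 30. Leaving out 1 library gave 0 to 18 members and a median of 0.17 to 0.52, and the scaling to strong promoter peaks gave a median of 0.05 and, over all peaks, 367 higher and 1425 lower in place of 603 and 187.

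For CTCF no setting called a member, except 1 in *Mettl3* KO against *Trdn-as* KO (*Oas2*) with all promoter peaks of a gene summed. That fit called 1.38% of all peaks tested. In *Mettl3* KO against WT the 112 peaks became 0 without the filter, without the trend, with only the compared genotypes and (0 to 0) without any 1 library, 384 with a filter at 30, 2 with the replicate block, and 752 and 633 under the scalings, where 60 higher and 52 lower became 508 and 244, and 315 and 318. In *Trdn-as* KO against WT the 356 peaks became 58 without the filter, 156 without the trend, 40 with only the compared genotypes, 236 with the replicate block and 1 to 40 without 1 library, and 1 pathway gene in place of 0 was called with uniquely mapped reads, a pseudocount of 5, the scaling to the median promoter peak and the crossed pairing. The cause of these changes was not tested.

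Library numbers did not pair the samples: deviations from the group means of same-numbered libraries correlated by -0.00957 to -0.00023 for RNA polymerase II and by -0.238 to 0.0059 for CTCF. The block on the replicate number changed no member's call, and the crossed pairing of the CTCF libraries of WT and *Trdn-as* KO, added after seeing the data, gave 503 peaks and 0 members in that comparison, and 846 and 2061 peaks in place of 112 and 828 in *Mettl3* KO against WT and against *Trdn-as* KO. Members with few estimated reads, such as *Mx1* and *Psmb9* (0.982 to 17.4), limit what a fold change can show.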
